A study of Mus musculus with 18 samples.

Results

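The genes described here are the 50 neighbours of Hmgn1 on distal mouse chromosome 16, a list of gene symbols matched to the platform annotation, out of 18193 genes with a probe set of their own on the array. On build GRCm38 they run from Tiam1 (start 89787111) to C2cd2 (end 97925795), a stretch of 8.14 Mb that has Hmgn1 inside it (96121588 to 96127725), with 39 members on the centromeric side of Hmgn1 and 11 on the telomeric side. Each gene is represented by its probe set with the highest mean signal over all arrays. All 50 were on the array, with 141 probe sets among them, and 44 were bright enough on average to be tested.

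Expression was measured in livers of male mice on 18 Affymetrix Mouse430_2 arrays, in 6 groups of 3. Livers labelled Hmgn1-/- and livers labelled Hmgn1+/+ were each taken at 4 weeks without injection, at 12 weeks after a saline injection, and at 12 weeks after an injection of N-nitrosodiethylamine (DEN, 10 µg per g body weight). DEN is a carcinogen that enzymes of the hepatocyte convert to a DNA-alkylating form. Both injections were given at 4 weeks of age, and the labels do not say whether the 12 weeks are an age or a time since the injection. The Hmgn1+/+ and Hmgn1-/- animals go back to the same heterozygous cross, after which each genotype was bred on as a line of homozygotes. Alleles linked to the targeted locus, the separate breeding of the lines and the loss of Hmgn1 therefore cannot be told apart in any genotype difference below. Nothing in the labels ties the 3 arrays of a group to 3 animals. The p-values below therefore rest on a spread that may be technical.

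HMGN1 is a small chromatin protein that binds the nucleosome core and loosens the compaction of chromatin. The genes around it on mouse chromosome 16 correspond to a large part of human chromosome 21, the chromosome present in an extra copy in Down syndrome. Among them are receptors for interferons and interleukin 10, GTPases of the Mx family, and enzymes that remove superoxide and carbonyl compounds. Others are transcription factors of the nervous and blood systems, and kinases. In a mouse line made by gene targeting, the chromosome segment next to the targeted gene can stay that of the embryonic stem cells. The strain of those cells is not given in the sources used here, and no genotype of the segment was measured.

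Hmgn1 itself gave no check of the labels. Its brightest probe set read 6864, 6667 and 6503 on the arrays labelled knockout at 4 weeks, against 6083, 7948 and 6724 on the wild-type arrays. The 2 groups overlapped, and the log2 difference was -0.04 (SE 0.10, limma adjusted p 0.898). The next probe sets of Hmgn1 differed by -0.11 and -0.10 at 4 weeks, and the last was too dim to be tested, with a mean signal of 12.4. Where the probes lie relative to the deleted part of the gene is not given in the sources used here, and probe sets whose names end in _x_at can bind related transcripts. For this reason the groups are called labelled knockout and wild type.

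The promoters of Cbr1, Cbr3 and Cldn14 are shown because Cbr1 and Cldn14 were called at 4 weeks, and because Cbr3 is the close relative of Cbr1 next to it on the chromosome. Each run is the 250 bases before a transcription start, 5′ to 3′ on the strand of the gene, from RefSeq on build GRCm38.p6. Capitals mark matches to the CCAAT box (CCAAT) or the GC box (GGGCGG) on either strand, so that a CCAAT box on the other strand reads ATTGG. Cbr1 lies on the plus strand at chr16:93607587-93607836, Cbr3 on the plus strand at chr16:93682969-93683218, and the outermost of 3 starts of Cldn14 on the minus strand at chr16:94008838-94009087.
Cbr1: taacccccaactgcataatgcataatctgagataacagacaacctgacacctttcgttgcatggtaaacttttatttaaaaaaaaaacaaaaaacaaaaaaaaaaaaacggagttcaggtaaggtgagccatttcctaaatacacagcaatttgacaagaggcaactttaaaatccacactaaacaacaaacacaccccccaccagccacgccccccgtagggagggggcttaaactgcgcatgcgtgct
Cbr3: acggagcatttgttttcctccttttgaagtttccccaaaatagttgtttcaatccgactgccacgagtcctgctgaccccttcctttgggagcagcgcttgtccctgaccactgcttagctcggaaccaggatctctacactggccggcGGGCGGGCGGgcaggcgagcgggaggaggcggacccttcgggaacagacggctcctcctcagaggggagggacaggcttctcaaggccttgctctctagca
Cldn14: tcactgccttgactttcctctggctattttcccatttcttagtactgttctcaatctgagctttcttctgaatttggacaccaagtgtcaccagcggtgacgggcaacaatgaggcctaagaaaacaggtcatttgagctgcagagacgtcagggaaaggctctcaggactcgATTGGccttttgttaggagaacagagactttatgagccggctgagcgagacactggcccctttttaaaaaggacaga
The window of Cbr1 held neither motif, that of Cbr3 held 2 overlapping GC boxes, and that of Cldn14 held a CCAAT box on the other strand. Over the 54 promoter windows of the 40 members that the RefSeq table covers, 35.2% held CCAAT and 55.6% held GGGCGG, against 33.8% and 32.7% of all 32851 windows of the same length. The antioxidant response element searched as TGACNNNGC on both strands was in 13.0% of the members' windows and 10.2% of all windows. The core of the interferon response element, searched as GAAANNGAA, was in 2 of the 54 windows (3.7%) and in 7.1% of all. These are matches of letters and are not measured binding sites.

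At 4 weeks 3 of the 44 tested members differed between the genotypes, or 6.82%, against 2.26% of all 27022 tested probe sets (limma, adjusted p under 0.05). Cldn14 rose in labelled-knockout livers, as did 1.27% of all tested probe sets, and Olig1 and Cbr1 fell, as did 0.992% of all. At an unadjusted p under 0.05 there were 14 members (31.8%), against 14.9% of all tested probe sets. Of these members 6 were higher and 8 lower, against 8.32% and 6.59% of all tested probe sets. The median difference of the 44 members was -0.07, with 21 higher and 23 lower, and that of all tested probe sets was 0.02. The members thus had no common direction at 4 weeks, and the direction of each of the 44 was unchanged by quantile normalization, by centring the array medians and by cyclic loess normalization.

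Olig1 had the largest difference among the members. It encodes a basic helix-loop-helix transcription factor of the oligodendrocyte lineage, and its only probe set read 32.7, 22.5 and 32.0 on the labelled-knockout arrays at 4 weeks, against 148, 138 and 132 on the wild-type arrays. The highest labelled-knockout array was far below the lowest wild-type array. The log2 difference was -1.79 (SE 0.40, limma adjusted p 0.0197), and the call was lost in 5 of the 6 fits that each left out a 4-week array, with an adjusted p of 0.084 without labelled-knockout replicate 2. With saline the signals were 57.2, 90.9 and 46.0 in labelled-knockout livers, against 171, 100.1 and 103 in wild-type livers, again without overlap. That difference was -0.80 (SE 0.40) and did not pass the test (adjusted p 0.948). With DEN they were 146, 157 and 21.1 in labelled-knockout livers and 129, 138 and 52.5 in wild-type livers, so that 1 array of each genotype was low and the groups overlapped (-0.18, adjusted p 0.933). Of 8 listed markers of oligodendrocytes and neurons, 7 were on the array and 3 were bright enough to be tested. Their summed signal was 228 to 279 on the labelled-knockout arrays at 4 weeks and 185 to 228 on the wild-type arrays, and most of it came from the synaptic gene Syt1, which averaged 149 over all arrays. The astrocyte gene Gfap averaged 35, the oligodendrocyte factor Sox10 averaged 21 and the myelin gene Mog averaged 5. Whether such cells have a part in the difference of Olig1 was not tested. Olig2, the partner gene next to Olig1, read from 0.591 to 17.8 over all arrays and was not tested.

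Cbr1 encodes the cytosolic carbonyl reductase that reduces quinones, prostaglandins and xenobiotic carbonyls. It read 819.8, 936 and 772 on the labelled-knockout arrays at 4 weeks, against 1202, 990.1 and 1186 on the wild-type arrays. The groups did not overlap, and Cbr1 fell by 0.41 on the log2 scale (SE 0.10, limma adjusted p 0.0289). The call was lost in 4 of the 6 fits without a 4-week array, with an adjusted p of 0.141 without labelled-knockout replicate 3. With saline it read 624, 636 and 755 in labelled-knockout livers and 710.0, 811 and 767 in wild-type livers, which overlap (-0.18, adjusted p 0.967). With DEN the order was turned: 946, 965 and 974 in labelled-knockout livers, against 847, 870.5 and 810.4 in wild-type livers, without overlap (0.19, adjusted p 0.597).

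Cldn14 encodes claudin 14, a protein of tight junctions. Its signal was 121, 121 and 109.6 on the labelled-knockout arrays at 4 weeks, against 66.6, 37.1 and 65.2 on the wild-type arrays, so that every labelled-knockout array was above every wild-type array. It rose by 0.91 on the log2 scale (SE 0.23, limma adjusted p 0.0433). This call was lost in all 6 fits without a 4-week array, and the difference was 0.70 (adjusted p 0.143) when wild-type replicate 2, which had the lowest signal, was left out. It was also lost after quantile normalization (0.87, adjusted p 0.0658), and 7 of the 15 alternatives other than single arrays left out kept it. Those that lost it include centring, cyclic loess, no filter, no intensity trend, array quality weights and leaving out the saline arrays. With saline the difference was 0.37 and with DEN 0.08, and both groups overlapped there.

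**Figure D1:**
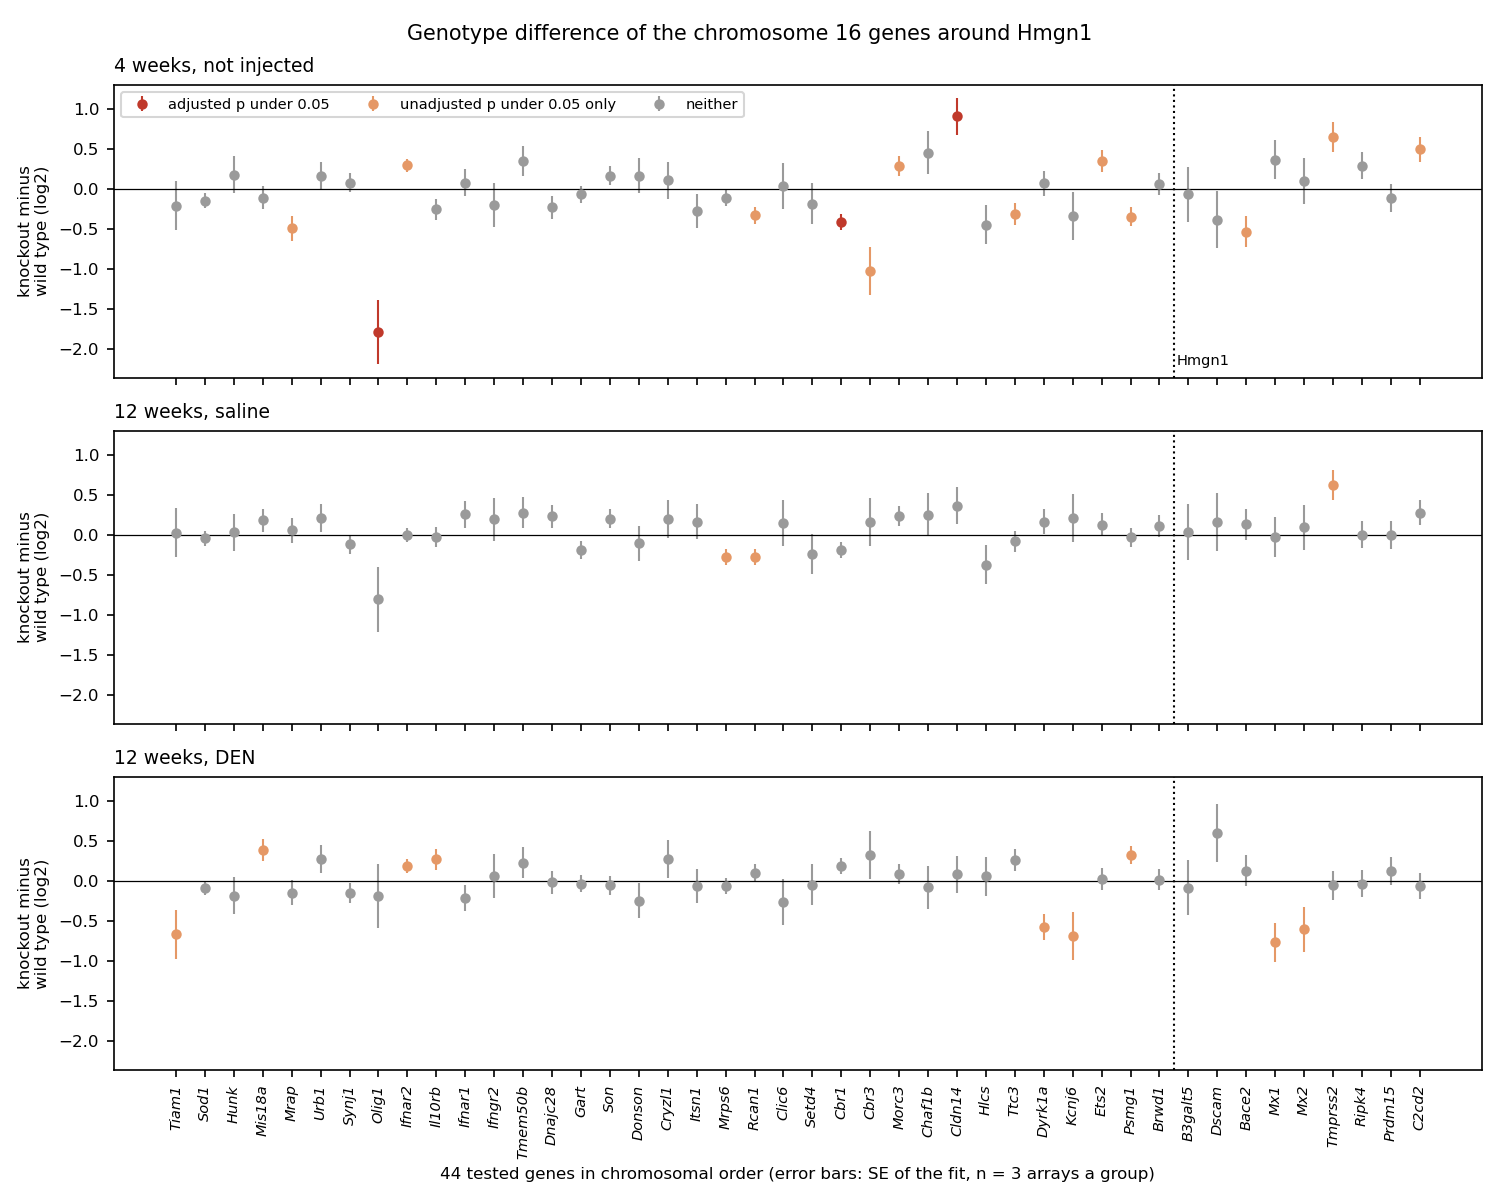
Log2 difference of labelled knockout minus wild type (vertical axes, with SE) for the 44 tested genes in chromosomal order, in the 3 conditions from top to bottom; the dotted line is the position of Hmgn1. Olig1, Cbr1 and Cldn14 pass the adjusted threshold at 4 weeks, and no gene does with saline or DEN.

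Position on the chromosome gave the following comparison at 4 weeks. The median absolute difference was 0.27 over the 44 members, 0.20 over the 15 other tested genes of the same interval, 0.15 over the 353 tested genes of the rest of chromosome 16 and 0.17 over the 12420 tested genes of other chromosomes. The share at an unadjusted p under 0.05 was 31.8% of the members, 20% of the other genes of the interval, and 17.6% both of the rest of the chromosome and of the other chromosomes. On chromosome 16 it was 33.3% of 30 genes within 2.5 Mb of Hmgn1 and 28.6% of 21 at 2.5 to 5 Mb. It was 10% of 20 at 5 to 10 Mb and 25% of 20 at 10 to 25 Mb. Farther out it was 8.33% of 24 at 25 to 40 Mb and 18.2% of 297 over 40 Mb. These shares describe the sets and were not tested against each other. The rank correlation of the absolute difference at 4 weeks with the distance from Hmgn1 was -0.18 over the 44 members, and 0.05 with saline and 0.07 with DEN.

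Among the genes of the same interval that are not members, Slc5a3, which encodes a carrier of myo-inositol, rose by 0.64 at 4 weeks (SE 0.16, limma adjusted p 0.0412). Its group means were 289 in labelled-knockout livers and 180 in wild-type livers. It lies 4.03 Mb from Hmgn1 and its annotated span overlaps that of Mrps6, a gene of the small subunit of the mitochondrial ribosome, whose own probe set differed by -0.11 (adjusted p 0.652). Outside the interval 8 of 353 genes of the chromosome were called, 7 higher and 1 lower, or 2.27%, and of the 12420 genes of other chromosomes 3.11% were, against 6.82% of the members. The 3 of smallest p were Hes1, a target of Notch signalling, at 1.57, the peptide carrier Slc15a2 at 1.88, and D16Ertd472e at 0.76, which lie 66.1, 59.3 and 17.5 Mb from Hmgn1.

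**Figure D2:**
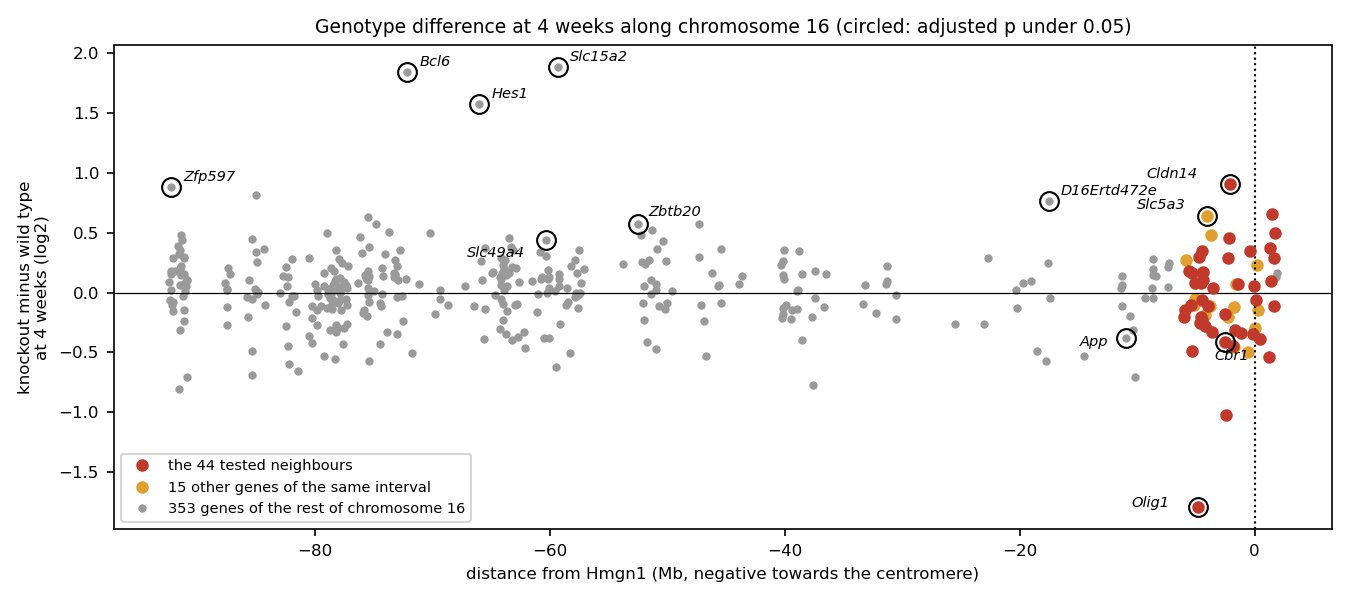
Log2 difference of labelled knockout minus wild type at 4 weeks (vertical axis) against the distance from Hmgn1 in Mb (horizontal axis), 1 point per tested gene of chromosome 16, with called genes circled. The members lie within a narrow range of distance and spread to both sides of 0, with Olig1 at -1.79 and Cldn14 at 0.91, and the largest rises are those of genes far from Hmgn1, such as Slc15a2 at 59.3 Mb.

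The receptor genes lie side by side. Ifnar1 and Ifnar2 encode the chains of the type I interferon receptor, Ifngr2 a chain of the interferon gamma receptor and Il10rb a chain shared by receptors of the interleukin 10 family. Ifnar2 read 1149, 1239.9 and 1120.2 on the labelled-knockout arrays at 4 weeks, against 1025, 861 and 966 on the wild-type arrays, without overlap. The difference was 0.30 (SE 0.08), which did not pass after adjustment (0.0696), and it was 0.00 with saline and 0.19 with DEN. Il10rb read 137, 155 and 130.2 in labelled-knockout livers at 4 weeks, against 164, 167 and 180.3 in wild-type livers. With DEN it read 191, 172 and 177 in labelled-knockout livers, against 148, 170.5 and 123 in wild-type livers. Its groups were thus apart in both conditions but in opposite order, at -0.25 and 0.27, and neither difference passed the test (adjusted p 0.377 and 0.552). Ifnar1 and Ifngr2 had differences between -0.21 and 0.26 in the 3 conditions, none of which passed.

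Mx1 and Mx2 are genes of the Mx family of interferon-induced GTPases, some of which block virus replication. Mx1 was dim throughout, with 23.2, 24.7 and 20.5 on the labelled-knockout arrays at 4 weeks, against 10.6, 14.1 and 17.9 on the wild-type arrays. With DEN it read 20.0, 4.33 and 4.46 in labelled-knockout livers, against 28.8, 20.1 and 29.3 in wild-type livers. The groups were apart in both conditions, higher in labelled knockout at 4 weeks (0.37) and lower with DEN (-0.76, SE 0.25, adjusted p 0.374). Mx2 with DEN read 5.47, 5.96 and 5.71 in labelled-knockout livers and 6.51, 16.5 and 33.0 in wild-type livers (-0.60, adjusted p 0.547). Signals as low as these are close to 15.5, the mean signal below which probe sets were left out.

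Of 27 tested interferon target genes on other chromosomes, 0 were higher and 1 was lower in labelled-knockout livers at 4 weeks. Of all tested probe sets 1.27% were higher and 0.992% lower there. The lower interferon target was Ifih1, a sensor of double-stranded RNA, at -0.39 (limma adjusted p 0.0487), and the median of the list was 0.07. With saline and with DEN 0 of the 27 differed between the genotypes, where 0.0111% and 0.0074% of all tested probe sets did.

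Of the enzymes of the set, Cbr1 is described above. Cbr3, a relative of Cbr1, read 1.05, 15.7 and 26.2 on the labelled-knockout arrays, against 40.5, 43.6 and 41.0 on the wild-type arrays. The groups were apart, and the difference of -1.02 (SE 0.30) had an adjusted p of 0.0855. It was 0.16 with saline and 0.33 with DEN. Hlcs, which attaches biotin to carboxylases, was below wild type on all labelled-knockout arrays at 4 weeks (-0.45) and with saline (-0.37), at signals of 13.3 to 37.9, and did not pass in either (adjusted p 0.409 and 0.992). Sod1, the copper and zinc superoxide dismutase of the cytosol, was the brightest member. It read 11872, 12678 and 12392 in labelled-knockout livers at 4 weeks, against 12334, 15085 and 13554 in wild-type livers, which overlap (-0.14, adjusted p 0.493). Gart, which carries 3 activities of purine synthesis, and the quinone oxidoreductase relative Cryzl1 differed by -0.19 to 0.28 in the 3 conditions without passing.

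Genes of the same pathways elsewhere in the genome are set beside the 2.26% of all tested probe sets called at 4 weeks and the 14.9% at an unadjusted p under 0.05. Of 10 tested genes of carbonyl reduction, 0 were higher and 1 was lower at 4 weeks, Dcxr, the dicarbonyl and xylulose reductase, at -0.39 (limma adjusted p 0.0271). The median of that list was -0.24, and 5 of its 10 genes had an unadjusted p under 0.05. Of 11 genes of purine synthesis, 0 were higher and 1 was lower, Prps2, a phosphoribosyl pyrophosphate synthetase, at -0.58 (adjusted p 0.0261), and the median was 0.05. Of 10 genes of superoxide and peroxide removal and 8 of nucleosome assembly, 0 differed, with medians of -0.08 and -0.11. In each of these lists 0 genes were called with saline or with DEN, where 0.0111% and 0.0074% of all tested probe sets were.

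**Figure D3:**
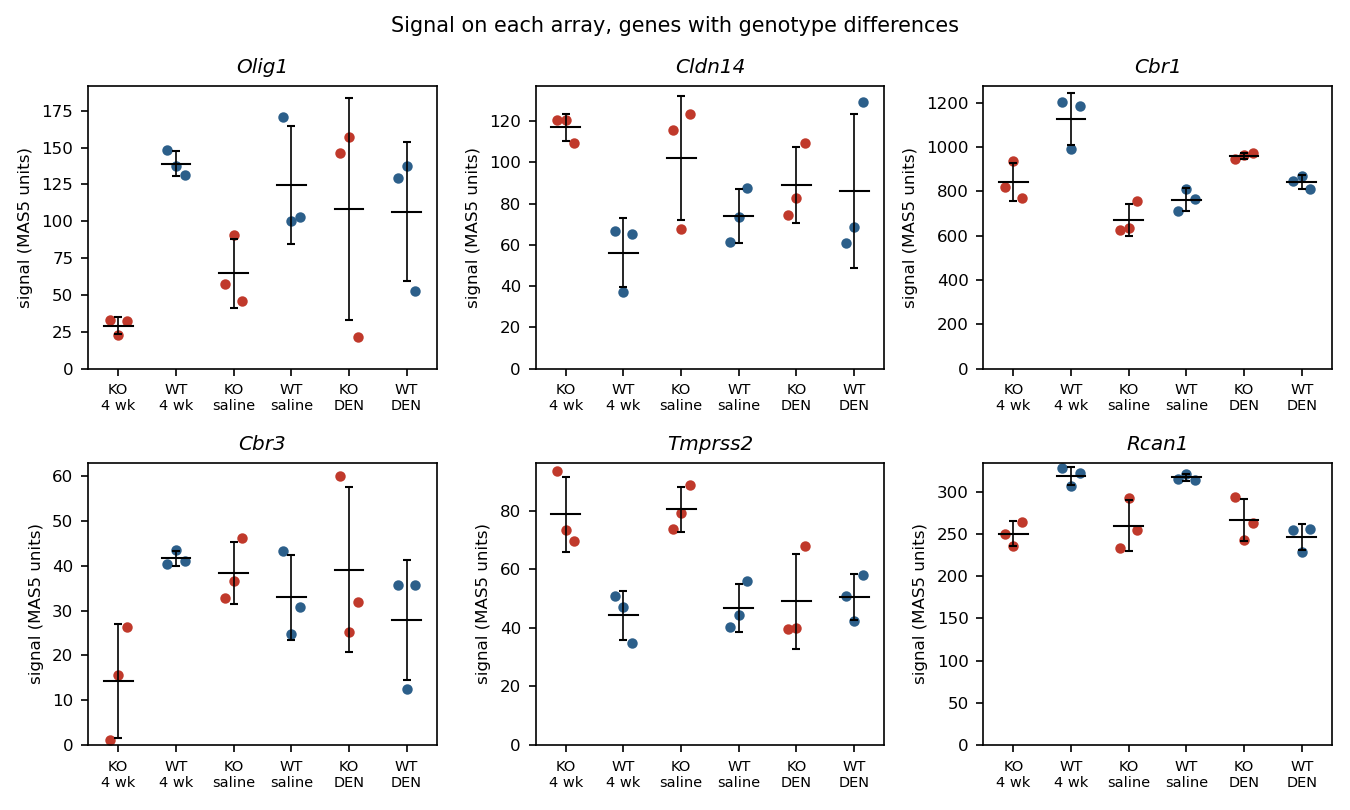
Deposited signal (MAS5 units, vertical axes from 0) on each of the 18 arrays for Olig1, Cldn14, Cbr1, Cbr3, Tmprss2 and Rcan1, with points for arrays and bars for the mean and SD of 3 arrays. In the 4-week groups at the left of each panel the labelled-knockout points lie wholly below or above the wild-type points for all 6 genes, and with DEN they do so for Cbr1 alone.

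Tmprss2 encodes a serine protease of the cell surface. It read 93.5, 73.3 and 69.6 on the labelled-knockout arrays at 4 weeks, against 50.8, 47.2 and 34.8 on the wild-type arrays. With saline it read 73.6, 79.3 and 88.8 in labelled-knockout livers, against 40.2, 44.5 and 56.0 in wild-type livers. All labelled-knockout arrays were above all wild-type arrays in both conditions, with a difference of 0.65 at 4 weeks (SE 0.19, adjusted p 0.0718) and of 0.62 with saline (SE 0.19, adjusted p 0.723). With DEN the signals were 39.6, 39.8 and 67.8 in labelled-knockout livers and 51.0, 42.5 and 58.0 in wild-type livers, which overlap (-0.05). A second probe set of Tmprss2 rose at 4 weeks by 0.84 (limma adjusted p 0.0430) and was 0.62 with saline and -0.05 with DEN, and the last tested one was 0.30 at 4 weeks (adjusted p 0.635).

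Bace2, a relative of the beta-secretase that cuts the amyloid precursor, read 34.9, 35.9 and 35.3 in labelled-knockout livers at 4 weeks, against 46.1, 61.6 and 69.7 in wild-type livers. The groups were apart there (-0.54, adjusted p 0.170) and overlapped in the other conditions (0.14 and 0.13). Kcnj6, a potassium channel subunit, Clic6, a chloride channel protein, and Dscam, an adhesion molecule of neurons, had mean signals of 21.9, 24.0 and 24.6. The channel subunit Kcne2 was not tested, with a mean of 4.81. Tmem50b, a membrane protein, was higher in labelled knockout in all 3 conditions (0.35, 0.28 and 0.23), with overlap in each and adjusted p values from 0.411 to 0.992.

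C2cd2, at the telomeric end of the set, had probe sets that differed in direction. Its brightest probe set read 866, 890.3 and 747 in labelled-knockout livers at 4 weeks, against 491, 702 and 583 in wild-type livers, without overlap, at 0.49 (adjusted p 0.120). The next brightest was at -0.51 (adjusted p 0.190), and the remaining ones were at 0.38 and -0.36. Over all members, 45 of the 57 other tested probe sets had the sign of the brightest probe set of their gene at 4 weeks (78.9%), against 30 of 57 with saline (52.6%) and 34 of 57 with DEN (59.6%).

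Among genes of signalling, Rcan1, an inhibitor of the phosphatase calcineurin, read 250.4, 236 and 265 on the labelled-knockout arrays at 4 weeks, against 327, 306 and 322 on the wild-type arrays. With saline it read 233, 292 and 255 in labelled-knockout livers, against 315, 321 and 314 in wild-type livers. It was lower on every labelled-knockout array in both conditions, with a difference of -0.33 at 4 weeks (SE 0.10, adjusted p 0.108) and of -0.28 with saline (SE 0.10, adjusted p 0.907), and was 0.11 with DEN.

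Dyrk1a, a kinase that phosphorylates NFAT factors and other targets, had groups that lay apart with DEN on its brightest probe set. It read 64.9, 69.1 and 62.4 in labelled-knockout livers with DEN, against 103, 93.9 and 121 in wild-type livers. The difference of -0.57 (SE 0.16) did not pass (adjusted p 0.297), and the next probe set was at 0.26. At 4 weeks and with saline Dyrk1a was at 0.07 and 0.17. The kinases Hunk and Ripk4, the Rac exchange factor Tiam1, and Itsn1 and Synj1, a scaffold and a phosphatase of endocytosis, had differences from -0.66 to 0.29, none of which passed. The lowest of these was Tiam1 with DEN, where 2 of 3 labelled-knockout arrays read 4.33 and 1.55 and the other read 27.4.

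Beside Olig1, which was called at 4 weeks, tested members of chromatin and transcription are Ets2, Morc3, Mis18a, Brwd1, Prdm15, Setd4 and Chaf1b. Of these others 0 were called between the genotypes, where 2.26% of all tested probe sets were called at 4 weeks. Ets2, a transcription factor downstream of Ras signalling, was 0.35 at 4 weeks (adjusted p 0.230), where 1 labelled-knockout array and 1 wild-type array were both at 279. Morc3, an ATPase that binds methylated histone H3, read 228, 239 and 217 in labelled-knockout livers at 4 weeks, against 201, 167 and 185 in wild-type livers, without overlap (0.29, adjusted p 0.278). Mis18a, which helps to load the centromeric histone, read 80.8, 101 and 100.2 in labelled-knockout livers with DEN, against 74.4, 59.8 and 69.5 in wild-type livers (0.39, adjusted p 0.437). Its groups were also apart with saline, in the same direction (0.19). Brwd1, Prdm15, Setd4 and Chaf1b, a subunit of the chromatin assembly factor, had differences of -0.24 to 0.46, none of which passed. Runx1, a factor of blood formation, and Sim2, of neural development, were not tested, with mean signals of 17.3 and 9.40.

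The remaining members serve the synthesis and handling of RNA and protein, or have single functions. Psmg1, a chaperone of proteasome assembly, read 462, 529 and 504 in labelled-knockout livers at 4 weeks, against 685, 540.0 and 694 in wild-type livers, without overlap (-0.34, SE 0.12, adjusted p 0.141). Mrap, which carries melanocortin receptors to the cell surface, read 379, 305 and 479 in labelled-knockout livers at 4 weeks, against 652, 508 and 478 in wild-type livers. The groups met at 479 and 478 (-0.49, SE 0.16, adjusted p 0.115). Mrps6 with saline read 292, 319 and 292 in labelled-knockout livers, against 342, 385 and 372 in wild-type livers (-0.27, SE 0.10, adjusted p 0.907).

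Urb1, a protein of the nucleolus, was above wild type on all labelled-knockout arrays with saline (0.21) and with DEN (0.28), and neither passed (adjusted p 0.993 and 0.670). The splicing protein Son, the replication fork protein Donson, the co-chaperone Dnajc28 and the ubiquitin ligase Ttc3 had differences of -0.31 to 0.26, none of which passed. Probe sets of Son and Donson, whose annotated spans overlap, were read as they are named. B3galt5, a galactosyltransferase, differed by at most 0.08 in size between the genotypes. Sh3bgr and the calmodulin-binding Pcp4 were not tested, with mean signals of 13.0 and 14.0.

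With saline 0 of the 44 members differed between the genotypes (limma, adjusted p under 0.05), where 0.0111% of all tested probe sets did. At an unadjusted p under 0.05 there were 3 members, Mrps6, Rcan1 and Tmprss2 (6.82%), against 5.28% of all tested probe sets. With DEN 0 of 44 differed, where 0.0074% of all did. At an unadjusted p under 0.05 there were 9 (20.5%), against 8.97% of all. These were Mis18a, Ifnar2, Il10rb and Psmg1 on the higher side, where 3.47% of all probe sets lay, and Tiam1, Dyrk1a, Kcnj6, Mx1 and Mx2 on the lower side, where 5.5% lay. Kcnj6 averaged 44.8 with DEN in wild-type livers, 22.1 with DEN in labelled-knockout livers and 13.0 to 20.2 in the other groups. The filter limit on mean signal was 15.5. The wild-type DEN arrays, the high side of this difference, thus helped Kcnj6 to pass the filter. The mean of the 3 genotype differences called 0 members, against 0.829% of all, and 13 at an unadjusted p under 0.05 (29.5%), against 12.5%. The 3 of smallest p were Olig1 at -0.93 (SE 0.23, limma adjusted p 0.0647), Tmprss2 at 0.41 (SE 0.11, adjusted p 0.0824) and Cldn14 at 0.45 (SE 0.13, adjusted p 0.125).

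The groups of 3 did not overlap in 16 of the 44 members at 4 weeks, 7 above and 9 below, or 36.4%, against 19.5% of all tested probe sets. With saline they did not overlap in 11 members (25%, against 17.7% of all), and with DEN in 10 (22.7%, against 10.8% of all). Olig1, Rcan1 and Hlcs were below wild type without overlap both at 4 weeks and with saline, and Tmprss2 and C2cd2 above. Cbr1, Il10rb and Mx1 were apart at 4 weeks and with DEN in opposite order.

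The differences at 4 weeks and with saline, which share no array, correlated across the 44 members with a Pearson r of 0.64 and a Spearman rho of 0.45, and across all 12896 tested genes with r 0.35. Genes are not independent replicates, so these are descriptions. Olig1 was the lowest member in both, at -1.79 and -0.80, and r without it and rho over all genes were not computed. The signs were the same in 29 of 44 members (65.9%), against 64.7% of all genes. Between 4 weeks and DEN r was -0.12 and 19 of 44 signs were the same (43.2%, against 46.7% of all genes). Over all 3 conditions 8 members were always higher in labelled knockout and 5 always lower, or 29.5%, against 30.1% of all genes. The higher ones were Urb1, Ifnar2, Tmem50b, Cryzl1, Morc3, Cldn14, Ets2 and Brwd1, and the lower ones were Sod1, Olig1, Gart, Mrps6 and Setd4.

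A test of whether the genotype difference itself differed between conditions called 1 member. For DEN minus 4 weeks this was Cbr1, 1 of 44 or 2.27%, against 0.762% of all tested probe sets. Its genotype difference was 0.19 with DEN and -0.41 at 4 weeks, and the change between them was 0.60 (SE 0.14, limma adjusted p 0.0447). The call was lost in 10 of the 12 fits that each left out an array of these groups, and the adjusted p was 0.116 without labelled-knockout replicate 3 at 4 weeks and 0.0611 after quantile normalization. Psmg1 read 737, 868 and 931 in labelled-knockout livers with DEN, against 622, 606 and 789.8 in wild-type livers (0.33, adjusted p 0.435). Its change of 0.67 (SE 0.17) had an adjusted p of 0.0594. At an unadjusted p under 0.05 there were 14 members (31.8%), against 14% of all.

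For saline minus 4 weeks 0 members were called, against 0.0037% of all, with 5 members at an unadjusted p under 0.05 (11.4%, against 4.02% of all). The 3 of smallest p were Cbr3 at 1.19, Mrap at 0.55 and Ifnar2 at -0.29, with an adjusted p of 0.999 each. For DEN minus saline 0 were called, against 0% of all, and 7 had an unadjusted p under 0.05 (15.9%, against 8.03% of all). Dyrk1a at -0.74 (adjusted p 0.430), Cbr1 at 0.37 (0.500) and Rcan1 at 0.38 (0.520) had the smallest p.

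**Figure D4:**
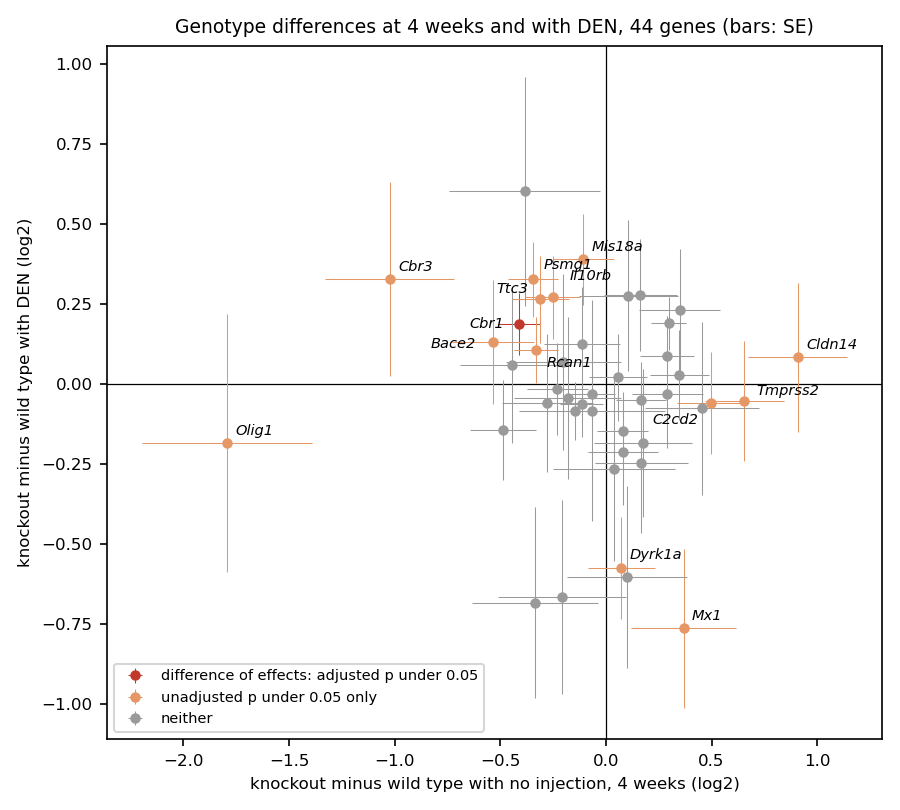
Log2 difference of labelled knockout minus wild type with DEN (vertical axis) against that at 4 weeks without injection (horizontal axis) for the 44 tested genes, with SE bars. Cbr1, at 0.19 with DEN and -0.41 at 4 weeks, is the gene whose 2 differences were called different, and Olig1 and Cldn14 are far out on the horizontal axis and near 0 on the vertical one.

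Over both genotypes together, 7 of 44 members differed between DEN and uninjected 4-week livers (15.9%), against 12.8% of all tested probe sets. The Gapdh ratio (its 3' probe set over its 5' probe set) was 1.13 to 2.19 on the 4-week arrays and 0.91 to 1.13 on the DEN arrays. DEN, the longer time and the RNA quality that this ratio measures cannot be told apart in this comparison. Psmg1, Ifnar2 and B3galt5 were called higher, as were 5.7% of all probe sets, and Mx2, C2cd2, Son and Gart fell, as did 7.15% of all. The count includes B3galt5, whose direction was fixed by the filter, as given below. Psmg1 read 606, 763 and 931 with DEN (lowest, median and highest of 6 arrays), against 462, 534 and 694 at 4 weeks (0.41, limma adjusted p 0.00314). The rise was uneven between the genotypes. Group means of Psmg1 were 846 with DEN and 498 at 4 weeks in labelled-knockout livers, and 673 and 640 in wild-type livers. The Mx2 signals were 5.47, 6.23 and 33.0 with DEN (lowest, median and highest), against 26.0, 26.9 and 53.9 at 4 weeks. Mx2 fell by 0.86 on the log2 scale (adjusted p 0.00751), with 1 wild-type DEN array at 33.0 within the range of the 4-week arrays. Its DEN median is below the filter limit of 15.5, and it passed the filter through the 4-week arrays. The size of the fall is therefore not fixed: it ran from -1.66 to -0.36 under the alternatives, and 9 of the 12 fits without a single array kept Mx2 above the filter.

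Of the 27 tested interferon targets elsewhere, 9 rose and 0 fell in the same comparison, against 5.7% and 7.15% of all tested probe sets. Their median was 0.30, and Irf9, Ifit1 and Usp18 were among those that rose. Ifnar2 rose by 0.26 (adjusted p 0.00694) on its brightest probe set, and its dimmer probe sets were at -0.27 and -0.33 (adjusted p 0.112 and 0.132). C2cd2 fell by 0.45 (adjusted p 0.0118), a call that was lost with the mean of all its probe sets (-0.19, adjusted p 0.145). Son fell by 0.28 (adjusted p 0.0277), a call that was lost in 5 of the 12 fits without a single array and with the mean of all its probe sets (-0.08, adjusted p 0.487). B3galt5 was called higher (adjusted p 0.0120), at a median signal of 29.2 with DEN against 1.84 at 4 weeks, where 5 of 6 arrays were under 10. It passed the filter on mean signal through its saline and DEN arrays, so that these had to lie above the 4-week arrays. The call of B3galt5 is therefore no test of its direction. The fitted difference moves with the value added before the log, and was 0.97 with 16 added and as low as 0.37 under the alternatives, and 8 of the 12 fits without a single array kept it above the filter.

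Between DEN and saline livers 7 of 44 members differed (15.9%), against 20.3% of all tested probe sets. Sod1, Cbr1, Kcnj6 and Psmg1 were called higher, as were 8.38% of all probe sets, and Morc3, Mis18a and Brwd1 lower, as were 12% of all. The 6 saline arrays stood apart from the others in overall signal: the brightest probe set of each read 16720 to 21752, while it read 46967 to 60173 on the other 12. The summed signal of 8 hepatocyte markers was 92623 to 119142 on the saline arrays, against 207890 to 241715 on the other 12. Saline treatment and these differences cannot be told apart, and their part in the calls was not tested. Sod1 read 10726, 11719 and 12836 with DEN (lowest, median and highest), against 7928, 8385 and 9604 with saline, for a difference of 0.45 (limma adjusted p 2.55e-05), which turned to -0.20 after quantile normalization (adjusted p 0.00652). No direction is given to Sod1 here.

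Morc3 had the largest fall, 1.06 on the log2 scale (limma adjusted p 1.56e-08). It read 155, 189 and 226 with DEN, against 344, 416 and 493 with saline, without overlap, and the fall was 1.02 after quantile normalization. This rests on 1 probe set of the gene, whose name ends in _s_at, a class that can bind several transcripts. The other tested probe sets of Morc3 were at -0.03 and 0.17. Cbr1 read 810.4, 908 and 974 with DEN, against 624, 732 and 811 with saline, and rose by 0.33 (adjusted p 0.0016). Group means of Cbr1 were 962 with DEN and 671 with saline in labelled-knockout livers, and 843 and 763 in wild-type livers. Of the 10 tested genes of carbonyl reduction elsewhere, 7 were called higher and 0 lower, against 8.38% and 12% of all tested probe sets. The median of that list was 0.29. Its genes were fitted under the main processing alone, so no direction is given to them here. Psmg1 rose by 0.27 (adjusted p 0.0221), a call lost in 3 of the 12 fits without a single array, and Mis18a fell by 0.34 (adjusted p 0.0210), a call lost in 2 of them. Group means of Psmg1 were 846 with DEN and 613 with saline in labelled-knockout livers, and 673 and 623 in wild-type livers. Kcnj6 was called higher by 0.67 (adjusted p 0.0278), a call lost in 5 of the 12. Its median was 35.0 with DEN, against 14.0 with saline and 17.8 at 4 weeks. The saline median is below the filter limit of 15.5, and the 4-week median is near it. Kcnj6 thus passed the filter on mean signal largely through its DEN arrays, the side called higher. The size of the difference is not fixed: it ran from 0.30 to 1.20 under the alternatives. The group means of Kcnj6 were 22.1 with DEN and 17.1 with saline in labelled-knockout livers, and 44.8 with DEN and 13.0 with saline in wild-type livers.

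**Figure D5:**
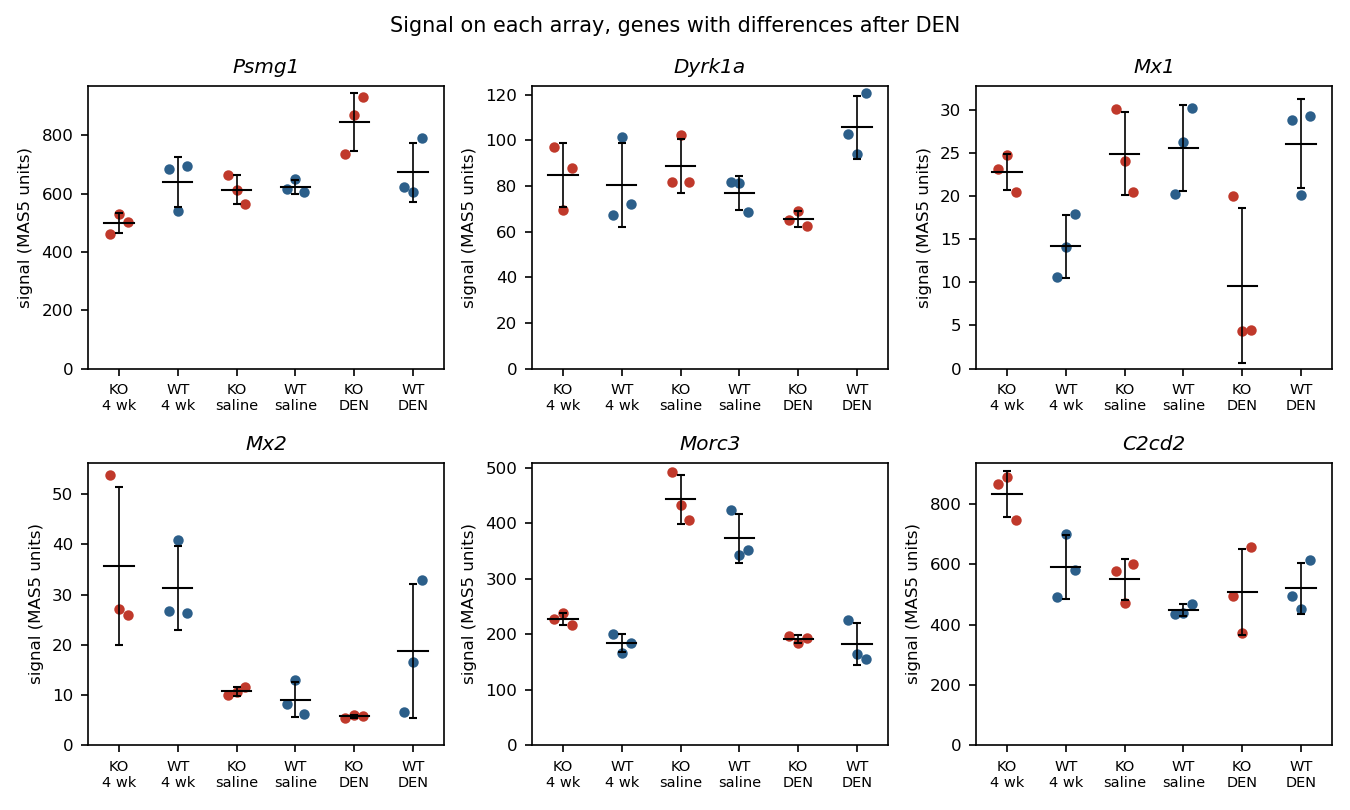
Deposited signal (MAS5 units, vertical axes from 0) on each of the 18 arrays for Psmg1, Dyrk1a, Mx1, Mx2, Morc3 and C2cd2, with points for arrays and bars for the mean and SD of 3 arrays. Morc3 is highest on the 6 saline arrays, at 344 to 493, and Mx2 has a median of 6.23 with DEN, where 1 wild-type array is at 33.0, against 26.9 at 4 weeks.

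Markers of liver cell types were checked beside these results. Hepatocyte markers were strong on all arrays (8 of 8 tested, none called at 4 weeks). The summed signal of 9 macrophage markers was 4018 to 4469 on the labelled-knockout arrays at 4 weeks, against 6031 to 6508 on the wild-type arrays, and that of 7 stellate cell markers was 3562 to 3664, against 4840 to 4998. Csf1r and C1qa of the macrophage list and Dcn of the stellate list were called at 4 weeks, as were 2.26% of all tested probe sets. The sum of 7 endothelial markers was 2401 to 2533 there, against 2606 to 2813. The brightest gene made a large part of each sum. Over all arrays Csf1r averaged 1919 in the macrophage list, Dcn 2402 in the stellate list and Clec4g 1434 in the endothelial list. The sums therefore do not show that a whole list differed. With saline the macrophage sum was 4846 to 5396, against 5585 to 6627, and the stellate sum 3464 to 4138, against 4158 to 4420. The endothelial sum was 2424 to 2596, against 2610 to 2700. Sums of lymphocyte, oligodendrocyte and neuron, and pancreatic acinar markers with saline were apart in the other direction. Whether these markers have a part in the differences of the members was not tested, and in whole liver fewer cells of a type and less RNA per cell cannot be told apart. The Gapdh ratio (its 3' probe set over its 5' probe set) is a measure of RNA quality. With DEN it was 0.91 to 0.94 on the labelled-knockout arrays and 1.02 to 1.13 on the wild-type arrays. Its part in the genotype differences with DEN was not tested. Within the 4-week groups, it was highest on wild-type replicate 2 (2.19) and labelled-knockout replicate 1 (1.70). Without these 2 arrays the differences were -1.86 for Olig1 (adjusted p 0.106), -0.48 for Cbr1 (adjusted p 0.0512) and 0.68 for Cldn14 (adjusted p 0.278), and 0 members were called.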

How the data were processed

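Liver RNA of 18 male mouse samples was read on Affymetrix Mouse430_2 arrays. The deposited values are 1 intensity per probe set and array on a linear scale, made with MAS5 per the submitters' processing notes; its version and the scanner files were not used here. The trimmed mean recomputed from the deposited intensity values was 150 on each array, and arrays of a group correlated across probe sets with r of 0.970 to 0.988. Of 45101 probe sets, 64 controls were set aside, 16 was added to the rest, log2 was taken, and the 27022 at or above the 40th percentile of mean log2 (a signal of 15.5) were tested. Probe sets mapping to several genes (932) or none (9160) named no gene.

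Differences were fitted with limma 3.58.1 in R 4.3.3 (lmFit, eBayes with an intensity trend) over all 18 arrays with 1 coefficient per group (12 residual degrees of freedom, prior 9.19). Tests were two-sided, p-values were adjusted by Benjamini-Hochberg over the 27022 probe sets of a contrast, and "rose" and "fell" stand for an adjusted p under 0.05. SE is that of the fitted log2(signal + 16) difference with 3 arrays a group; differences of dim genes are understated on this scale. The script was tested on simulated data. The array number limits the precision.

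The members, the pathway and marker lists and the naming of genes were chosen with earlier results of these data known. Values are given gene by gene for members called in a genotype contrast, otherwise for the 3 of smallest p, and for the 6 largest called differences with DEN; other members named beside them were picked for their role or after their values were seen. Levels are not compared between probe sets. The promoter windows and the letters of the interferon motif were shortened after a first search had been seen.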

Additional observations from a re-analysis of the deposited data

Results flagged for a closer look

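The genotype difference of Cbr1 differed between DEN and 4 weeks by a test of the change itself, at 0.60 on the log2 scale (SE 0.14, limma adjusted p 0.0447). The labelled-knockout arrays were all above the wild-type arrays with DEN and all below them at 4 weeks. Leaving out single arrays of these groups gave changes of 0.54 to 0.69, and the call was lost in 10 of 12 such fits.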

How the results depend on the processing

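Counts of called members depended on the processing. At 4 weeks the 3 calls became 0 without the intensity trend, 5 with array quality weights, 1 without the saline arrays, 0 without the 4-week array of highest Gapdh ratio in each genotype (chosen after seeing the data), and 0 to 3 when single arrays were left out. The members at an unadjusted p under 0.05 there numbered 10 to 16 without single arrays and 11 to 19 under the other alternatives. With saline and with DEN the count was 0 under every alternative run. For the mean of the 3 conditions it was 1 with centred medians, 2 with array quality weights, 1 with the replicate block and 0 to 2 without single arrays, against 0. For the change between DEN and 4 weeks the 1 call became 0 after quantile normalization, centring, no filter, no intensity trend, the replicate block, leaving out the saline arrays or fitting the compared groups alone; it became 2 with cyclic loess, a filter at the 60th percentile, array quality weights or the mean of all probe sets, and 0 to 2 without single arrays. For DEN minus 4 weeks the 7 calls became 3 with the mean of all probe sets, 4 without the saline arrays or with the compared groups alone, 2 without the arrays of highest Gapdh ratio and 4 to 7 without single arrays. For DEN minus saline they became 4 with the mean of all probe sets and 4 to 8 without single arrays. The causes were not tested. Over 745 refits of 31 gene values, 654 kept direction and call, 78 lost the call, 9 gained it and 4 turned. Values not called at first count as kept when they stay uncalled, so the 654 do not measure how stable the calls were. Of the 6 fits without single arrays, 1 kept the 4-week call of Olig1, 2 that of Cbr1 and 0 that of Cldn14. Of 15 other alternatives, 13, 11 and 7 kept these calls. Sod1 for DEN minus saline turned to -0.20 (quantile) and -0.016 (cyclic loess), and with the mean of all probe sets Ifnar2 for DEN minus 4 weeks turned to -0.11 and the change of Rcan1 between DEN and saline to -0.16. Centring moved the median of all probe sets with saline to -0.09, against 0.04, and that of the members to -0.02, against 0.10. The replicate numbers did not pair the samples: deviations of same-numbered arrays correlated at -0.098 to 0.116, with 2 of 45 pairs over 0.1. Of the 44 tested members 12 averaged under 50, near the filter limit of 15.5.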
